A study of Mus musculus with 6 samples.

Results

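The α-fetoprotein gene *Afp* and 7 genes that are followed with it in the liver were examined in RNA from 6 mouse livers. The 8 genes were chosen by name as oncofetal or hepatocyte genes out of 54532 genes listed in the deposited table. They were *Afp*, *Gpc3*, *Lin28b*, *Igf2bp2*, *Igf2bp3*, *Cd24a*, *Zhx2* and *Alb*. Oncofetal genes are active in the fetal liver, fall silent after birth and can return in injured, regenerating or malignant liver. AFP is the main plasma protein of the fetal hepatocyte and is replaced by albumin, the product of the neighbouring *Alb* gene, in the adult. ZHX2 is a zinc finger and homeobox protein known as a postnatal repressor of *Afp*.

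The liver RNA came from 3 g*Spns1*-cKO and 3 control mice, 1 library per mouse. The g*Spns1*-cKO animals carried floxed *Spns1* alleles (*Spns1* fl/fl) and a tamoxifen-dependent Cre at the Rosa26 locus (Rosa26Cre-ERT2). Tamoxifen, injected into the abdomen of pups before weaning, deleted exon 3 of *Spns1* throughout the body and not in hepatocytes alone. The controls are floxed littermates in the methods and wild type in the labels, and whether the sequenced controls received tamoxifen is not given in the sources used here. The strain background was C57BL/6, and the sex and the age of these livers at harvest are not given in the sources used here. SPNS1 is a lysosomal membrane protein that carries lysophospholipids out of the lysosome, and the comparison asks how its loss affects gene expression in the liver. *Spns1* lies at chr7:126370060-126377450 on the minus strand of GRCm38. Control livers had 35.8, 50.7 and 34.6 CPM (counts scaled to a common, TMM-corrected library size) and g*Spns1*-cKO livers 17.8, 30.6 and 17.7 CPM. The groups did not overlap, and *Spns1* fell by 0.87 on the log2 scale (SE 0.25, edgeR quasi-likelihood adjusted p = 0.0300), a call that was lost in 3 of the 6 fits without a single liver. The largest adjusted p without a single liver was 0.0910, and with library size only the log2 change was -0.43 (adjusted p = 0.213). The call was also lost with upper-quartile scaling (-0.74, adjusted p = 0.0635). These counts cover the whole gene, whereas the deletion removes exon 3, so they do not measure the loss of function. The paper reports a reduced SPNS1 protein band in g*Spns1*-cKO livers by western blot.

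The libraries held 30350002 to 35295611 counts, and 3 counts, taken as the floor of detection, equalled 0.0762 to 0.118 CPM. All 6 livers had the RNA of hepatocytes, since *Alb* alone took 4.33% to 6.69% of all counts. All 6 also had between 1731 and 2568 counts of the Y-linked gene *Ddx3y* and at most 5 counts of *Xist*, the pattern of male liver. The TMM scaling factors separated the groups, at 0.834 to 0.873 in control and 1.16 to 1.18 in g*Spns1*-cKO livers. Over all genes tested, the median log2 fold change was 0.014 with TMM and 0.46 when libraries were scaled by their size alone, and changes below are relative to the TMM scale. The floor covers counting error only, whereas the intervals of log2 fold changes include the spread between livers. In whole liver, fewer cells of a type and less RNA per cell cannot be told apart.

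The *Alb* and *Afp* genes are shown first because they are the adult and the fetal member of 1 gene family and lie side by side on chromosome 5. *Alb* occupies chr5:90460897-90476602 and *Afp* chr5:90490737-90508907, both on the plus strand of GRCm38, with 14134 bases between them. The next gene of the family, *Afm*, starts 10024 bases after the end of *Afp*. The promoter windows below run from 250 bases before to 50 bases after the RefSeq start, on the plus strand of GRCm38.p6, 5′ to 3′. The *Afp* window is chr5:90490464-90490763 and the *Alb* window chr5:90460620-90460919. Capitals mark the letters TTNNGNAA on either strand, which fit the C/EBP factors, activators of both genes, and the letters TATAAA of a TATA box.
Afp: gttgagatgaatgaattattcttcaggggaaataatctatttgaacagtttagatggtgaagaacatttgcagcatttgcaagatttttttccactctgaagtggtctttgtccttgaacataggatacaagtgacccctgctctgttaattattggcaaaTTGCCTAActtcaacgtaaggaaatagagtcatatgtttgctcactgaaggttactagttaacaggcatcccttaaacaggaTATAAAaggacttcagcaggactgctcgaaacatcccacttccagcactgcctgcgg
Alb: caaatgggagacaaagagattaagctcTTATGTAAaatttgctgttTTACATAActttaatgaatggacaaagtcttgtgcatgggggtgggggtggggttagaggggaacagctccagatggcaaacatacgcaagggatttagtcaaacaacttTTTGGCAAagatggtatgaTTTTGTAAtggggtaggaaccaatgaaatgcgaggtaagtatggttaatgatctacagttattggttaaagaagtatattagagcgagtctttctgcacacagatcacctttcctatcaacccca
TATAAA, searched on the gene's own strand, stood in the *Afp* window and not in the *Alb* window, and was found in 8.32% of 32851 promoter windows. These background windows did not cover every chromosome. TTNNGNAA was present once in the *Afp* and 4 times in the *Alb* window, did not overlap TATAAA, and had at least 1 match in 40.7% of the background windows. Both windows had a GC content of 40% and 3 CpG, against medians of 52.7% and 7 CpG for the background windows. The *Gpc3*, *Igf2bp2* and *Igf2bp3* windows were CpG-rich by comparison, with 30, 47 and 25 CpG, and the *Lin28b* window had 8.

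Of the 8 genes, 6 had enough counts to be tested, and 3 passed the test between g*Spns1*-cKO and control livers. *Cd24a* and *Igf2bp2* were higher and *Alb* was lower, while *Afp*, *Gpc3* and *Zhx2* did not pass. Across all 15449 genes tested, 41.8% passed, 21.3% as higher and 20.5% as lower, so 3 of 6 is close to the share of all genes. The same shares are the background for the counts of each gene list below. The groups did not overlap for *Cd24a* and *Alb*, 2 of the 6 tested genes, against 54.1% of all genes. The 6 genes had a median log2 fold change of 0.53, against 0.014 for all tested genes. *Lin28b* and *Igf2bp3* were too low to be tested and are described by their counts. At an adjusted p threshold of 0.01, 1 of the 6 passed, *Cd24a*, against 3890 of all 15449 genes tested.

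**Figure D1:**
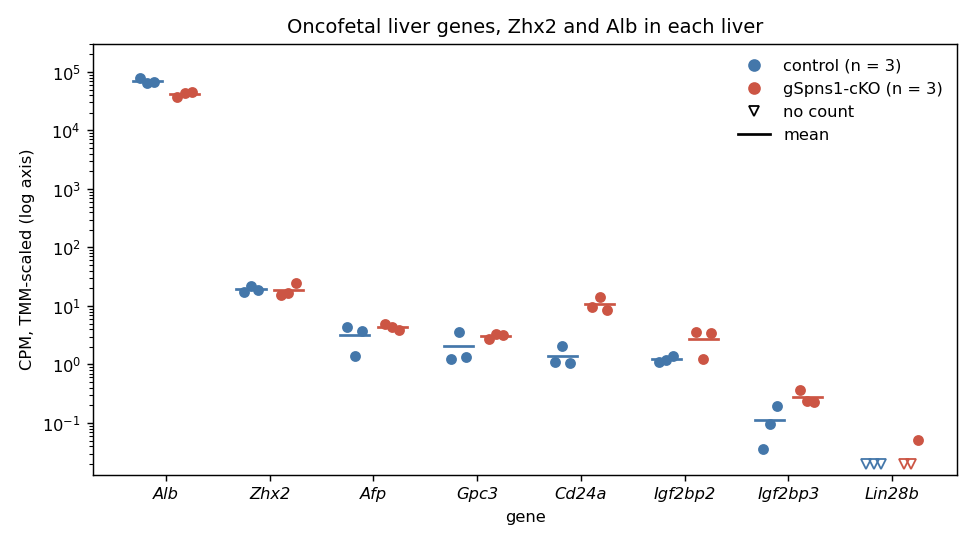
CPM of each of the 8 genes in each liver on a log axis, control and g*Spns1*-cKO side by side, with open triangles for livers without a count. The g*Spns1*-cKO livers lie above all control livers for *Cd24a* and *Igf2bp3* and below them for *Alb*, whereas the groups overlap for *Afp*, *Gpc3*, *Igf2bp2* and *Zhx2*.

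*Afp* (ENSMUSG00000054932, 15 exons) was detected in every liver at a low level. Exon numbers, here and below, are merged exonic blocks over all annotated transcripts of a gene and not the exons of a single transcript. Control livers had 123, 43 and 93 counts, and g*Spns1*-cKO livers had 179, 169 and 152 counts. In CPM these were 4.37, 1.40 and 3.67 for control and 4.97, 4.40 and 3.86 for g*Spns1*-cKO. The ranges overlapped, because the highest control liver exceeded the lowest g*Spns1*-cKO liver, and control replicate 2 stood below the other 5 livers. The log2 fold change was 0.49 (SE 0.36, 95% interval -0.31 to 1.30, edgeR adjusted p = 0.299), so the interval reached from a small decrease to more than a doubling. Without control replicate 2 it was 0.12 (adjusted p = 0.686), and the highest value without a single liver was 0.80. Of the 15 other settings *Afp* passed the test in 1, library size only (0.94, adjusted p = 0.0464).

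*Alb* (ENSMUSG00000029368, 16 exons) was far above the other 7 genes in every liver. Control livers had 77348, 63646 and 66941 CPM of *Alb*, and g*Spns1*-cKO livers had 37398, 43082 and 45060 CPM. The groups did not overlap on this scale, and *Alb* fell by 0.73 on the log2 scale (SE 0.18, edgeR adjusted p = 0.0101), 1.66-fold lower in g*Spns1*-cKO. As a share of all counts, without TMM, *Alb* took 6.69%, 5.56% and 5.58% in control and 4.33%, 5.07% and 5.25% in g*Spns1*-cKO livers, which also did not overlap. The *Alb* call was lost with library size only, at a log2 fold change of -0.28 (adjusted p = 0.210).

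The ratio of *Afp* to *Alb* was taken within each library and per kilobase of gene length, so that the scaling between libraries cancels. On the log2 scale the ratio was -14.63, -16.00 and -14.68 in control and -13.40, -13.78 and -14.03 in g*Spns1*-cKO mice. All 3 g*Spns1*-cKO livers lay above all 3 control livers. A lower *Alb* raises the ratio of any unchanged gene to *Alb*, so the separation need not be particular to *Afp*. Of these genes only *Alb* passed the test by itself. On a linear scale the level of *Alb* per kilobase was 25441, 65580 and 26208 times that of *Afp* in control, and 10819, 14080 and 16773 times in g*Spns1*-cKO. The mean log2 ratio was -15.10 ± 0.777 in control and -13.74 ± 0.318 in g*Spns1*-cKO (SD, n = 3 each). The difference was 1.37, with an exact two-sided permutation p = 0.1, the smallest that 3 livers against 3 can give. Without control replicate 2 the difference was 0.92.

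**Figure D2:**
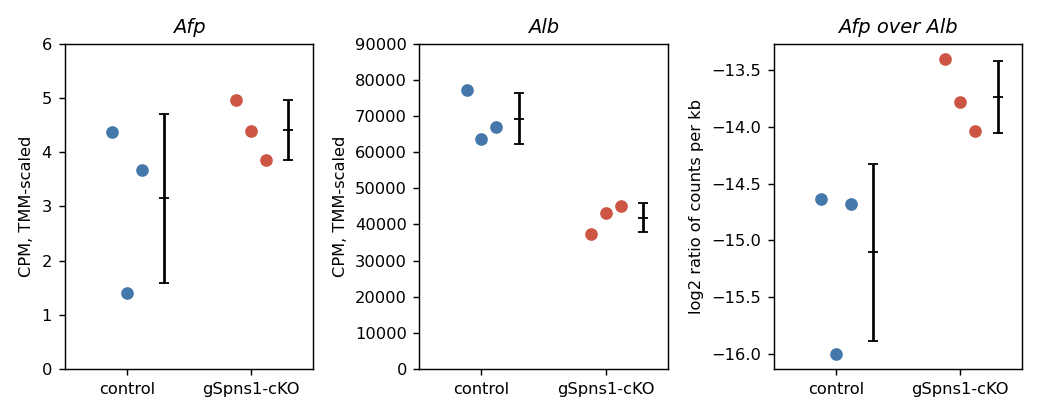
*Afp* in CPM, *Alb* in CPM and the log2 ratio of *Afp* to *Alb* per kilobase, one point per liver, with the mean and SD of each group. The *Afp* points overlap between groups, whereas the *Alb* points and the ratios do not.

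The rest of the albumin family was measured for comparison. *Afm* encodes afamin, a vitamin E binding plasma protein, and *Gc* the vitamin D binding protein. *Afm* had 207 ± 15.3 CPM in control and 122 ± 8.15 CPM in g*Spns1*-cKO livers (SD, n = 3 each) and fell by 0.76 on the log2 scale (SE 0.12, edgeR adjusted p = 0.000685). *Gc*, at chr5:89417522-89457898 on the minus strand, had 6069 ± 229 CPM and 4030 ± 271 CPM and fell by 0.59 (SE 0.15, adjusted p = 0.0117). Of the 4 members 3 were lower and *Afp* did not pass, and its change was set against that of another member, *Alb*, in the ratio alone. With library size only *Afm* was still lower (log2 fold change -0.31, adjusted p = 0.0425), while *Gc* was not called (-0.15, adjusted p = 0.429). A noncoding gene, *Gm43449*, lies within and beyond the *Afp* gene on the opposite strand, at chr5:90499088-90515931, and shares 0 exonic bases with *Afp*. It had 62, 44 and 58 counts in control and 19, 24 and 28 in g*Spns1*-cKO livers, and fell by 1.66 on the log2 scale (SE 0.33, adjusted p = 0.00292). Whether counting used strand is not given in the sources used here.

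The plasma proteins of the mature hepatocyte give the setting of the *Alb* change. Of the 23 genes of this list that were tested, 14 fell, 0 rose and 9 did not pass, with a median log2 fold change of -0.71. Haptoglobin (*Hp*) had the largest decrease (-1.71, adjusted p = 0.0450), with 91322, 423014 and 330692 counts in control and 107877 to 120970 in g*Spns1*-cKO livers. On the CPM scale control replicate 1 lay within the g*Spns1*-cKO range, and the *Hp* call was lost with library size only (adjusted p = 0.0855), with upper-quartile scaling (adjusted p = 0.0539) and in 5 of the 6 fits without a single liver, where the largest adjusted p was 0.154. *Serpina1a*, an α1-antitrypsin gene, fell by 1.27 (adjusted p = 0.000144), and *Ambp*, the precursor of α1-microglobulin and bikunin, by 1.05 (adjusted p = 0.00250). *Ahsg* encodes fetuin-A and was at -0.01 (adjusted p = 0.977). Scaled by library size only, 4 of the 23 were lower and 1 was higher, and the median was -0.26.

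*Zhx2* (ENSMUSG00000071757, chr15:57694665-57839832, plus strand, 5 exons) was at a similar level in both groups. It had 17.6, 21.8 and 18.8 CPM in control and 15.5, 16.4 and 24.8 CPM in g*Spns1*-cKO livers, where replicate 3 was the highest of all 6 and replicates 1 and 2 the lowest. The mean was 19.4 ± 2.17 CPM in control and 18.9 ± 5.12 CPM in g*Spns1*-cKO (SD, n = 3 each). The log2 fold change was -0.04 (SE 0.18, 95% interval -0.44 to 0.37, edgeR adjusted p = 0.889). Its sign depended on the setting, with 0.41 for library size only (adjusted p = 0.0863) and 0.10 for upper-quartile scaling.

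ZHX2 is known to repress a small group of liver genes after birth, and 4 of them were tested: *Afp*, *Gpc3*, *H19* and *Lpl*. *H19* rose and *Lpl* rose, and *Afp* and *Gpc3* did not pass. *H19*, an imprinted noncoding RNA of the fetal liver, had 4, 5 and 1 counts in control and 29, 58 and 38 counts in g*Spns1*-cKO livers. Its log2 fold change was 3.18 (SE 0.54, adjusted p = 0.00118). *Lpl* encodes lipoprotein lipase, which the adult hepatocyte makes little of and macrophages make in quantity. It had 363, 403 and 356 counts in control and 8425, 14101 and 11112 counts in g*Spns1*-cKO livers. These are 13.3 ± 0.624 CPM and 295 ± 67.4 CPM (SD, n = 3 each), 22.1-fold higher in g*Spns1*-cKO (adjusted p = 2.84e-07). The summed level of 10 macrophage markers ran from 149 to 245 CPM in control and from 511 to 739 CPM in g*Spns1*-cKO livers, all 10 passed as higher, and their part in the *Lpl* result was not tested. *H19* and *Lpl* passed in each fit without a single liver.

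*Gpc3* (ENSMUSG00000055653, chrX:52272426-52613950, minus strand, 8 exons) encodes glypican 3, a heparan sulfate proteoglycan of the cell surface used as a marker of hepatocellular carcinoma. It had 1.24, 3.60 and 1.34 CPM in control and 2.75, 3.36 and 3.15 CPM in g*Spns1*-cKO livers. Control replicate 2 was the highest of all 6 livers, and the other 2 control livers were the lowest. The log2 fold change was 0.57 (SE 0.38, 95% interval -0.29 to 1.43, edgeR adjusted p = 0.261). Without control replicate 2 it was 1.25 and passed the test (adjusted p = 0.00860), so this one liver decided the call. The same liver was the lowest of the 6 for *Afp* and the highest of the 3 control livers for *Cd24a* and *Zhx2*.

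Of the 4 glypicans tested, 2 fell, 0 rose and *Gpc3* and *Gpc6* did not pass. The 2 called of 4 are close to the share of all genes tested, 41.8%. *Gpc1* had 22.5 ± 0.295 CPM in control and 8.29 ± 1.51 CPM in g*Spns1*-cKO livers (SD, n = 3 each) and fell by 1.44 on the log2 scale (adjusted p = 6.28e-05). *Gpc4*, next to *Gpc3* on the X chromosome, fell by 0.32 (adjusted p = 0.0364) on the TMM scale, but its log2 fold change was 0.12 with library size only (adjusted p = 0.353). *Gpc4* also lost its call with DESeq2 (adjusted p = 0.0506) and with upper-quartile scaling (adjusted p = 0.169). The same held in 4 of the 6 fits without a single liver, where the largest adjusted p was 0.108. *Gpc6* had a log2 fold change of 1.10 (adjusted p = 0.102). *Gpc2* had 0 to 6 counts and *Gpc5* none.

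The regulators of *Afp* were taken as a list of 15 genes, all of them tested. Of these 2 rose, 4 fell and 9 did not pass, with a median log2 fold change of -0.17. The 6 called of 15 are close to the share of all genes tested, 41.8%. *Cebpa* encodes C/EBPα, an activator of *Alb* and *Afp*, and had 537 ± 54.0 CPM in control and 203 ± 47.5 CPM in g*Spns1*-cKO livers (SD, n = 3 each). It fell by 1.41 on the log2 scale (SE 0.18, adjusted p = 0.000213). *Foxa3*, a forkhead factor of the hepatocyte, fell by 1.34 (adjusted p = 0.000543) and *Cebpb* by 1.25 (adjusted p = 0.000486). These 3 were lower in every setting tried.

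*Foxa2*, the related forkhead factor, rose by 0.49 on the log2 scale (adjusted p = 0.0236), a call lost in 4 of the 6 fits without a single liver, where the largest adjusted p was 0.0931. *Trp53* encodes p53, a repressor of *Afp*, and rose by 0.54 (adjusted p = 0.0151), a call lost without control replicate 3 (adjusted p = 0.0557). *Zbtb20*, the other main repressor of *Afp* after birth, had 94.3 ± 18.5 CPM in control and 77.2 ± 22.0 CPM in g*Spns1*-cKO livers. The ranges overlapped, and its log2 fold change was -0.29 (adjusted p = 0.323). Of the relatives of *Zhx2*, *Zhx1* was at 0.01 (adjusted p = 0.967), and *Zhx3* fell by 0.52 (adjusted p = 0.0192). The *Zhx3* call was lost with library size only (-0.07, adjusted p = 0.695), with upper-quartile scaling (adjusted p = 0.0643) and without 3 of the single livers, where the largest adjusted p was 0.0729. *Hnf4a*, the master regulator of the hepatocyte, was at -0.42 (adjusted p = 0.0666). Scaled by library size only, 5 of the 15 regulators were higher and 3 lower, and the median was 0.27.

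**Figure D3:**
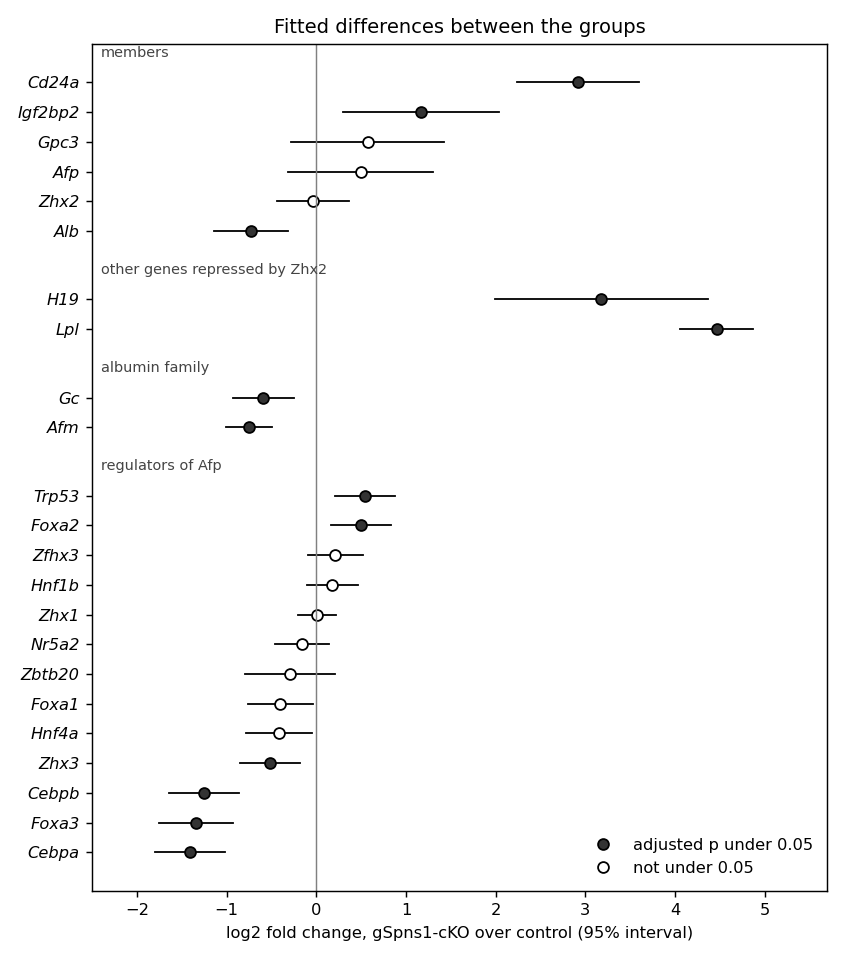
Log2 fold change (g*Spns1*-cKO minus control) with 95% intervals for the tested oncofetal genes, *H19* and *Lpl*, *Gc* and *Afm*, and regulators of *Afp*, with filled points for an adjusted p under 0.05. *Lpl*, *H19* and *Cd24a* lie farthest to the right, *Cebpa*, *Foxa3* and *Cebpb* farthest to the left, and the intervals of *Afp*, *Gpc3* and *Zhx2* include 0.

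LIN28B is an RNA-binding protein of fetal cells that blocks the maturation of the let-7 miRNAs, and the IGF2BP proteins are RNA-binding proteins whose messages let-7 represses. *Lin28b* (ENSMUSG00000063804, chr10:45376620-45486395, minus strand) had 0 counts in 5 livers and 2 counts in g*Spns1*-cKO replicate 3. All values are at or under the floor, so no fold is given and the transcript was not detectable at this depth.

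*Igf2bp3* (ENSMUSG00000029814, chr6:49085223-49214957, minus strand) had 1, 3 and 5 counts in control and 13, 9 and 9 counts in g*Spns1*-cKO livers. The control values of 1 and 3 counts are at or under the floor of 3 counts. The groups did not overlap, as in 54.1% of all genes tested. The mean was 0.110 ± 0.082 CPM in control and 0.275 ± 0.075 CPM in g*Spns1*-cKO (SD, n = 3 each). The exact two-sided permutation p was 0.1, the smallest that 3 against 3 allows. Of the 8159 exonic bases of *Igf2bp3*, 1529 are shared with *Malsu1* on the opposite strand. Without strand, reads within the shared bases cannot be told apart between these genes. *Malsu1* had 391 to 531 counts in control and 407 to 445 in g*Spns1*-cKO livers.

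*Igf2bp2* (ENSMUSG00000033581, chr16:22059009-22163299, minus strand, 21 exons) was low and even in the control livers, at 1.10, 1.17 and 1.38 CPM. In the g*Spns1*-cKO livers it had 3.61, 1.22 and 3.38 CPM, so that replicate 2 was within the control range and the other 2 livers were above it. *Igf2bp2* rose by 1.17 on the log2 scale (SE 0.39, edgeR adjusted p = 0.0354), 2.25-fold. The call was lost in 5 of the 6 fits without a single liver, with log2 fold changes of 1.09, 1.13 and 1.25 without control replicate 1, 2 and 3 (adjusted p = 0.101, 0.105 and 0.0744) and of 0.92 and 0.99 without g*Spns1*-cKO replicate 1 and 3 (adjusted p = 0.101 and 0.124). Without g*Spns1*-cKO replicate 2 it was 1.52 (adjusted p = 0.00221). It was also lost with limma-voom (1.01, adjusted p = 0.121).

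Of the 16 genes of the Lin28 and let-7 axis, 10 were tested, 2 rose, 2 fell and 6 did not pass. The 4 called of 10 are close to the share of all genes tested, 41.8%. The rising genes were *Igf2bp2* and *Tut4*, a uridylyl transferase that marks let-7 precursors, at 0.33 (adjusted p = 0.0497). The *Tut4* call was lost with RLE scaling (adjusted p = 0.0519), DESeq2 (adjusted p = 0.0884) and limma-voom (adjusted p = 0.0507). It was also lost in 5 of the 6 fits without a single liver, with adjusted p up to 0.177. *Dis3l2*, the exonuclease that degrades those precursors, fell by 0.59 (adjusted p = 0.00378). *Mycn* had 67, 34 and 46 counts in control and 39, 14 and 26 in g*Spns1*-cKO livers and fell by 1.33 (adjusted p = 0.0340). When library size alone was used, 6 of the 10 were higher and 0 lower, and *Dis3l2* (-0.15, adjusted p = 0.344) and *Mycn* (-0.89, adjusted p = 0.113) lost their calls. The *Mycn* call was further lost without 4 of the single livers, with adjusted p up to 0.118. Of the classical fetal members, *Lin28a* had 2 counts in all 6 livers together and *Igf2bp1* had 1.

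*Cd24a* (ENSMUSG00000047139, chr10:43578284-43584265, plus strand, 4 exons) had the largest change of the 8 genes. It encodes CD24, a small glycoprotein anchored in the cell surface, which in the liver is known from progenitor cells, bile duct cells and tumours and is also carried by B cells, neutrophils and erythroid cells. Control livers had 31, 64 and 27 counts, and g*Spns1*-cKO livers had 340, 550 and 339 counts. In CPM these were 1.10, 2.08 and 1.07 for control and 9.44, 14.3 and 8.62 for g*Spns1*-cKO, and the groups were far apart. *Cd24a* rose by 2.92 on the log2 scale (SE 0.30, 95% interval 2.24 to 3.59, edgeR adjusted p = 0.0001), 7.54-fold. It passed in all 15 other settings, with log2 fold changes of 2.66 to 3.36, the threshold of 0.01 included.

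The cell types that carry CD24 were followed by marker lists. The summed level of 10 bile duct markers ran from 50.1 to 66.3 CPM in control and from 176 to 287 CPM in g*Spns1*-cKO livers. Most of this sum was *Spp1*, osteopontin, which macrophages also make, with 44.6 ± 10.1 CPM in control and 195 ± 50.5 CPM in g*Spns1*-cKO. Of the 10 markers 8 were tested, 7 rose and 1, *Onecut1*, fell by 1.44 (adjusted p = 0.0434). The *Onecut1* call was lost with library size only (-1.01, adjusted p = 0.113), with upper-quartile scaling (adjusted p = 0.0635) and with limma-voom (adjusted p = 0.0871). It was also lost in 5 of the 6 fits without a single liver, where the largest adjusted p was 0.130. The B cell markers summed to 2.61 to 3.52 CPM in control and 4.45 to 6.14 CPM in g*Spns1*-cKO, and 1 of 5 tested, *Cd22*, rose. The neutrophil markers summed to 2.52 to 4.90 CPM and 5.36 to 9.94 CPM, with 2 of 3 tested higher. These were *S100a8* and *S100a9*, which make up most of the sum, while the granule genes *Elane*, *Ngp*, *Camp* and *Mpo* had at most 18 counts in any liver and *Ly6g* had 0 counts in all g*Spns1*-cKO livers. The erythroid markers summed to 152 to 179 CPM and 237 to 315 CPM, with 3 of 8 tested higher and 1 lower. The erythroid genes did not move together. The globin genes *Hbb-bs* and *Hba-a1* rose by 1.11 and 1.16 on the log2 scale (edgeR adjusted p = 0.0358 and 0.0413). Neither overlapped between the groups. *Hba-a2* (1.14, adjusted p = 0.0866) and *Hbb-bt* (0.56, adjusted p = 0.330) did not pass. *Tfrc*, the transferrin receptor that many cell types carry, rose from 13.9 ± 3.16 to 127 ± 35.8 CPM (adjusted p = 6.73e-05) and was the largest part of the g*Spns1*-cKO sum. *Alas2*, the haem synthesis enzyme of erythroid cells, was the largest part of the control sum. It fell from 87.8 ± 3.82 to 9.78 ± 4.47 CPM (adjusted p = 0.000772). The erythroid factor *Klf1* had 5.26 ± 0.649 and 3.16 ± 1.90 CPM (adjusted p = 0.143). Endothelial (5 of 6) and stellate cell markers (5 of 7) were also higher, while hepatocyte markers were lower for 5 of 8, or, with library size only, lower for 1 and higher for 1. The part of these cells in the *Cd24a* result was not tested.

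Ratios of *Cd24a* to bile duct genes within each library, chosen after the values were seen, show how far they moved together. Markers of other cell types rose as well, among them all 10 macrophage markers, and ratios to those were not taken. There were 1.24, 3.05 and 1.69 counts of *Cd24a* per count of *Epcam* in control and 1.58, 1.68 and 1.88 in g*Spns1*-cKO livers, which overlap. Per count of *Krt19*, a keratin of bile duct cells, there were 1.19, 1.83 and 1.80 in control and 2.17, 3.37 and 1.93 in g*Spns1*-cKO livers, which do not overlap. Per count of *Sox9* there were 0.284, 0.865 and 0.213 in control and 0.907, 1.07 and 0.767 in g*Spns1*-cKO livers, which overlap through control replicate 2.

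Other genes of the hepatoblast and the fetal liver give the context of *Afp*. The list had 18 genes, of which 11 passed the filter on low counts, and 10 of these rose, 0 fell and *Peg3* did not pass (adjusted p = 0.0567). Genes that are high in 1 group only can pass the filter through that group, so the count of 10 is a description. *Epcam*, an adhesion protein of progenitor and bile duct cells, had 25, 21 and 16 counts in control and 215, 328 and 180 in g*Spns1*-cKO livers. It rose by 3.11 on the log2 scale (SE 0.30, adjusted p = 4.82e-05). *Prom1* rose by 2.79 (adjusted p = 0.00163) and the fatty acid desaturase gene *Scd2* by 2.38 (adjusted p = 3.42e-05). *Bex1* had 0, 0 and 2 counts in control and 13, 34 and 36 in g*Spns1*-cKO livers. *Epcam*, *Krt19* and *Sox9* stand in both this list and the bile duct list.

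Several genes of the list that did not pass the filter on low counts are named here after their values were seen. *Dlk1*, a surface protein of the hepatoblast, had 1, 2 and 0 counts in control and 0, 1 and 1 in g*Spns1*-cKO livers. *Igf2* had 0 counts in all control and 2, 1 and 0 in g*Spns1*-cKO livers, whereas *H19* from the same imprinted region rose. *Sall4* and the embryonic globins *Hbb-bh1* and *Hba-x* had 0 counts in all 6 livers. Of the proliferation markers, 1 of 8 tested, *Mcm2*, passed as higher.

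**Figure D4:**
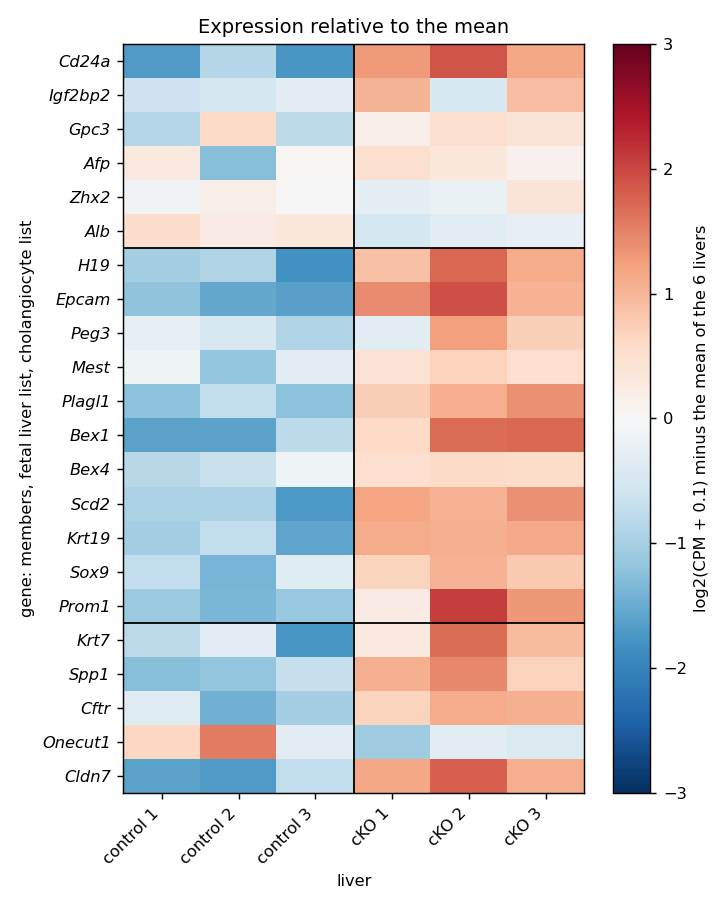
Heatmap of log2(CPM + 0.1) minus the mean of the 6 livers for the oncofetal genes, other fetal liver genes and bile duct markers, one column per liver. *Cd24a* resembles most bile duct rows, *Onecut1* excepted, with all 3 g*Spns1*-cKO livers above the mean, whereas *Afp*, *Gpc3* and *Zhx2* differ among livers of 1 group. Macrophage, endothelial and stellate cell markers, most of which were also higher in g*Spns1*-cKO livers, are not drawn.

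The order of the 8 genes by level was set per kilobase of gene length. In the control livers it ran from *Alb* (29595 ± 3054 CPM per kb) over *Zhx2* (4.38 ± 0.490), *Afp* (0.934 ± 0.462), *Gpc3* (0.767 ± 0.496), *Cd24a* (0.549 ± 0.222) and *Igf2bp2* (0.164 ± 0.0198) to *Igf2bp3* (mean 0.0135) and *Lin28b* (0). The ranges of *Afp*, *Gpc3* and *Cd24a* overlapped, so their order is not resolved. In the g*Spns1*-cKO livers *Cd24a* stood at 4.18 ± 1.19 CPM per kb, next to *Zhx2* at 4.27 ± 1.15, and their ranges overlapped. *Afp* was at 1.31 ± 0.165 and *Gpc3* at 1.15 ± 0.115 CPM per kb, which also overlapped, followed by *Igf2bp2* at 0.370 ± 0.178. *Alb* remained the highest at 17868 ± 1698 CPM per kb.

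The genes whose pattern over the 6 livers was most like that of *Afp* were noncoding or little-known genes, by the root mean square difference of centred log2(CPM + 0.1) with genes under a mean level of 1 CPM left out. They were *B230206L02Rik* (0.0964), *Gm16023* (0.140), *Gm44669* (0.175), *Fign* (0.179) and *Gm6665* (0.211). For *Zhx2* the nearest were *Tmem267* (0.0535), *Adarb1* (0.0784), *Gm12174* (0.0785), *Phlpp2* (0.107) and *Glud-ps* (0.109). With 6 livers, many genes come close to any pattern, and these are given as a description.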

How the data were processed

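The 6 liver RNA libraries were grouped by their sample labels, 3 for each genotype. The authors deposited 1 table with whole-number counts per Ensembl gene for each library, not normalized, with FPKM values, gene lengths and their own fold changes and p-values. The submitters' processing notes name fastp, HISAT2 2.0.5 and featureCounts 1.5.0-p3, and the strand setting is not given in the sources used here. The counts entered all tests. The deposited FPKM, which divide counts by gene length and a library total, and the authors' comparison were not used, and gene lengths served for levels per kilobase. Gene positions in the deposited table match GENCODE M21 (GRCm38), and promoter sequences were taken from RefSeq (GRCm38.p6), where 6 of the 8 members had an entry.

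Tests were run with edgeR 4.0.16 (R 4.3.3). Of 26590 genes with a count, filterByExpr kept 15449. Libraries were scaled by TMM, and groups were compared by the quasi-likelihood test (robust, no covariate) with Benjamini-Hochberg adjustment over all genes and a threshold of 0.05. Levels are CPM on TMM-scaled library sizes, mean ± SD. Exact permutation tests were two-sided. No 2 libraries of a group agreed within sampling noise (chi-square per gene 38.8 to 114). The labels do not say more on how mice relate, so p-values measure the spread between these samples. Alternatives were DESeq2 1.42.0, limma-voom (limma 3.58.1), library size only, RLE and upper-quartile scaling, filters of at least 1 count in any and 10 in every library, a threshold of 0.01, a replicate block and leaving out each liver. The code was tested on simulated data.

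The 8 members and all gene lists were chosen with earlier results of these data known. Named genes were the members, *Spns1*, any gene of the albumin family, glypican, *Zhx2* target and *Afp* regulator lists, up to 4 called genes in each direction of the other lists with markers near 0, and the 5 genes most like *Afp* and *Zhx2*. *Gm43449*, *Malsu1*, *Ahsg*, *Klf1*, genes given for counts alone, and genes set beside *Cd24a* were named after their values were seen. Protein, lipid and other assays of the study were not analysed here. Some genes of the lists are counted but not reported by name.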

Additional observations from a re-analysis of the deposited data

How the results depend on the processing

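Over the 15 alternatives, 73 of 90 values of the tested members kept their direction and side of the threshold, 9 lost the call, 2 gained it and 6, all of *Zhx2*, turned direction. *Zhx2* was at 0.41 with library size only, 0.10 with upper-quartile scaling, 0.0072 with the filter of at least 10 counts, and 0.05, 0.085 and 0.06 without control replicate 2, g*Spns1*-cKO replicate 1 and g*Spns1*-cKO replicate 2, within a range of -0.28 to 0.085 over the fits without a single liver. *Gpc4* turned to 0.12 with library size only. With library size only, 7289 genes were higher and 970 lower, against 3286 and 3166, and with upper-quartile scaling 4111 and 2240. At a threshold of 0.01, 3890 genes passed (1983 higher, 1907 lower) and 1 member. Leaving out single livers gave 4490 to 6429 genes called, 2 to 3 members called and an *Afp* to *Alb* difference of 0.92 to 1.60. Equal replicate numbers did not pair the livers (correlations of deviations 0.037, 0.032 and -0.029). With the replicate block 6100 genes and 3 members were called and the ratio difference of 1.37 is the same by construction. The block moved *Igf2bp2* to an adjusted p of 0.0494 and ended the calls of *Gpc4* (adjusted p = 0.0536), *Hp* (0.0957) and *Tut4* (0.0794). Of 255 counts of called genes per list, 211 were within 1.5 times. With 3 livers a group, *Afp* and *Gpc3* changes within their 95% intervals could not be resolved, and *Igf2bp3* and *Lin28b* had too few counts to be tested. Except where a setting leaves out livers or genes, the cause was not tested.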

Other observations

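Genes were ranked by likeness to *Cd24a* over the 6 livers after its values were seen, by the same measure as for *Afp*. The nearest were *Sox4* (0.141), a transcription factor of progenitor cells, *Bicc1* (0.182), an RNA-binding protein, *Mmp2* (0.259), a matrix protease, *Hey1* (0.264), a target of Notch signalling, and *Scara3* (0.271). *Sox4* had 3, 11 and 3 counts in control and 63, 99 and 76 in g*Spns1*-cKO livers, so that control replicate 2 was the highest control liver and g*Spns1*-cKO replicate 2 the highest of all, as for *Cd24a*.

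Among untested genes of the let-7 axis, *Trim71* had no count in any control liver, and the g*Spns1*-cKO livers had 3, 8 and 8 counts. *Hmga2* had 1, 0 and 0 counts in control and 2, 5 and 5 in g*Spns1*-cKO mice. Both are close to the floor, and no fold is given.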
